A study of Mus musculus with 6 samples.

Results

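The mouse loci described here lie on chromosomes 3, 5 and 18 and were compared between Nlk-KO and wild-type (WT) cells of the neuroblastoma line N2a. The members were chosen by their chromosome and by a measured value, a mean over the 6 libraries of at least 0.5 FPKM, which is the number of mapped fragments scaled to transcript length and library size. Of 3501 loci listed on these chromosomes, 1723 met the rule: 809 on chromosome 5, 586 on chromosome 3 and 328 on chromosome 18, out of 12667 such loci among the 26657 of the whole table. The chromosomes were themselves selected because the median difference between the genotypes was already known to lie below 0, so that median is a description here and was not tested. Just inside the limit were Zar1, at a mean of 0.5083 FPKM, and Fzd1, at 0.5099, and just outside it Gm1653, at 0.4986, and Ccdc62, at 0.4982. Of the 1778 loci left out, 619 were listed at 0 in every library. Among the members, 32 had an Nlk-KO mean below 0.5 FPKM and 20 a WT mean below it, so these passed only through the other genotype. Of the members, 51 merged several overlapping genes and 144 had no gene symbol.

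N2a cells come from a mouse neuroblastoma, and per the study they are polyploid. In the Nlk-KO cells the gene of the kinase Nlk had been mutated with a Cas9 nickase and paired guide RNAs, and several clones were grown in the study, but the labels do not say which clone gave which library. The WT cells were isogenic N2a cells. Each genotype had 3 libraries labelled as biological replicates (poly(A) RNA, paired ends). Nothing states that they came from separate cultures, so the spread between them may be technical. Nlk itself, on chromosome 11, had 6.78, 7.01 and 6.83 FPKM in Nlk-KO libraries and 15.8, 16.6 and 16.1 FPKM in WT libraries (log2 fold change -1.22, limma adjusted p = 1.36e-06). These are RNA values, whereas the study classed clones as Nlk-KO by Nlk protein, which it reported as undetectable in them. Of 15 neuroblastoma and sympathoadrenal markers, 12 exceeded 1 FPKM, with summed levels of 1875 to 1899 FPKM in Nlk-KO and 2134 to 2244 FPKM in WT libraries, and Nefl and Nefm averaged under 0.5. Of 14 markers of other cells, 3 did, Cd68 and Pecam1 among them, with sums of 354 to 389 FPKM in Nlk-KO and 374 to 409 FPKM in WT libraries, nearly all of it Cd68, while Krt18, Epcam and Col1a2 were at or near 0. Whole-read steps among loci below 0.2 FPKM gave relative depths of 0.979 to 1.29 in Nlk-KO and 1 to 1.17 in WT libraries, and the absolute depth is unknown.

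Genes that neighbour each other on a chromosome mostly have unrelated functions, but they share the DNA molecule they are copied with. Where a cell carries more or fewer copies of a chromosome, the transcripts of many of its genes tend to follow by a modest amount, whereas a regulator usually reaches genes on many chromosomes. Tumour lines such as N2a have an abnormal chromosome set that can drift between clones. DNA was not measured in these libraries, so the part of copy number, clone or genotype in the values below was not tested.

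The promoters below are shown because they bracket the size of the differences: the most abundant gene called lower in Nlk-KO cells on each of chromosomes 5 and 3, and the lowest and highest genes of chromosome 3 among called loci of at least 5 FPKM, a microRNA locus aside. The sequences are those of RefSeq on GRCm38.p6, from 250 bases before to 50 after the start of the gene, read along the gene, and capitals mark a TATA box (TATAAA), the E-box letters CACGTG, or the core of the TCF/LEF motif (CTTTGA) on either strand. Atp5j2 (chr5:145191492-145191791, minus strand) and Atp5f1 (RefSeq Atp5pb, chr3:105959214-105959513, minus strand) encode subunits of the mitochondrial ATP synthase. 0610031J06Rik (RefSeq Glmp, chr3:88324773-88325072, plus strand) encodes a glycosylated lysosomal membrane protein, and Npnt (chr3:132950242-132950541, minus strand) encodes nephronectin, a matrix ligand of integrins.
Atp5j2: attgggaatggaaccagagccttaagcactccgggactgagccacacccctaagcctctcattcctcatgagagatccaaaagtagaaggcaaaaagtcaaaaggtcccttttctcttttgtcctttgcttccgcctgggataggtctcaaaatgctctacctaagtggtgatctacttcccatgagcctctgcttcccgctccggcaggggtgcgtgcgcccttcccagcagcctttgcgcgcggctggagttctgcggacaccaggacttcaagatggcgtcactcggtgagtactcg
Atp5f1: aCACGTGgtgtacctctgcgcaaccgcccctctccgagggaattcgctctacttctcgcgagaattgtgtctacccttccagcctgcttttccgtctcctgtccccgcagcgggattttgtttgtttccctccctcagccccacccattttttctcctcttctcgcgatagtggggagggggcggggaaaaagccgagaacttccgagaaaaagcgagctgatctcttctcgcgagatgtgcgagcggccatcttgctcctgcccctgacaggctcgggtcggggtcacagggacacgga
0610031J06Rik: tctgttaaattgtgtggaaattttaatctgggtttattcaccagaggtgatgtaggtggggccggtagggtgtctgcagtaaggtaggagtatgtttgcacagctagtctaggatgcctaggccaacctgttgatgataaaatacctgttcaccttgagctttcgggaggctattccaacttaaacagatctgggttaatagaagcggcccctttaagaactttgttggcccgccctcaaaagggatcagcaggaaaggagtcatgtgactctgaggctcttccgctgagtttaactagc
Npnt: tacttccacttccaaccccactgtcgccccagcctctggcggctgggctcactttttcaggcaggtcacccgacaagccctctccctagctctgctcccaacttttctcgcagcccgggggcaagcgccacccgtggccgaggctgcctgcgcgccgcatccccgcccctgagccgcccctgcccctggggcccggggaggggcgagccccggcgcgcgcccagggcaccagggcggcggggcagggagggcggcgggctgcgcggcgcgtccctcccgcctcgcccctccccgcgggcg
Of these windows only that of Atp5f1 holds one of the motifs, the E-box letters. The windows of 0610031J06Rik and Npnt hold 5 and 32 CG steps. Those of Rimbp2 and Shisa3, the lowest and highest such chromosome 5 loci apart from a locus not reported here, hold 7 and 28.

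A RefSeq window was matched to 1033 of 1250 single-symbol members of chromosomes 3 and 5 (82.6%). The median number of CG steps was 22 over the 348 windows of loci called lower in Nlk-KO cells, 23 over the 109 called higher and 23 over all 1033, against 21 over 7905 windows of other chromosomes and 7 over all 27025 RefSeq windows. By tertile of CG steps the median log2 fold change was -0.11, -0.09 and -0.10 on chromosomes 3 and 5. The TATA box letters stood in 5.61% of the members' windows, those of the E-box in 10.7% and the TCF/LEF core in 12.2%, against 6.29%, 10.2% and 11.7% of the windows of other chromosomes and 14.2%, 7.24% and 16.2% of all RefSeq windows. No motif contains another, and these matches are descriptions of letters, not of factor binding.

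Most loci on the chromosomes were slightly lower in Nlk-KO than in WT cells. On chromosome 5 the median log2 fold change was -0.11, a change of -7.05%, and 598 of 809 loci (73.9%) lay below 0. On chromosome 3 it was -0.10, a change of -6.38%, with 423 of 586 loci (72.2%) below 0, and on chromosome 18 it was -0.08, a change of -5.3%, with 226 of 328 (68.9%) below 0. Over the 9256 loci outside chromosomes 2, 3, 5, 10 and 18 the median was -0.00 and 50.3% lay below 0. Among 20 chromosomes, only chromosome 10, at -0.20, had a lower median, and the next after these were chromosomes 11 and 13, both at -0.06. Chromosome 2 stood at the other end with 0.19.

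The shift was present in each Nlk-KO library. Relative to the WT mean of each locus, the median on chromosome 5 was -0.100, -0.117 and -0.092 in the Nlk-KO libraries, against 0.007, 0.015 and -0.016 in the WT libraries. On chromosome 3 the Nlk-KO libraries stood at -0.075, -0.105 and -0.092 and the WT libraries at -0.002, -0.001 and 0.004. Chromosome 18 gave -0.061, -0.096 and -0.072 in Nlk-KO libraries, and 0.003, -0.002 and -0.001 in WT libraries. The genotypes did not overlap on any of the 3 chromosomes. Nor did they on chromosomes 10, 11, 12, 13 and 16, where the Nlk-KO libraries were lower. On chromosomes 1, 2, 7, 17 and X every Nlk-KO library stood above every WT library, so non-overlap is not particular to the 3. Nlk-KO replicate 2 was the lowest of its group on each of the 3, as it was over all 12667 loci (-0.001, -0.016 and -0.007 in the Nlk-KO libraries).

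**Figure D1:**
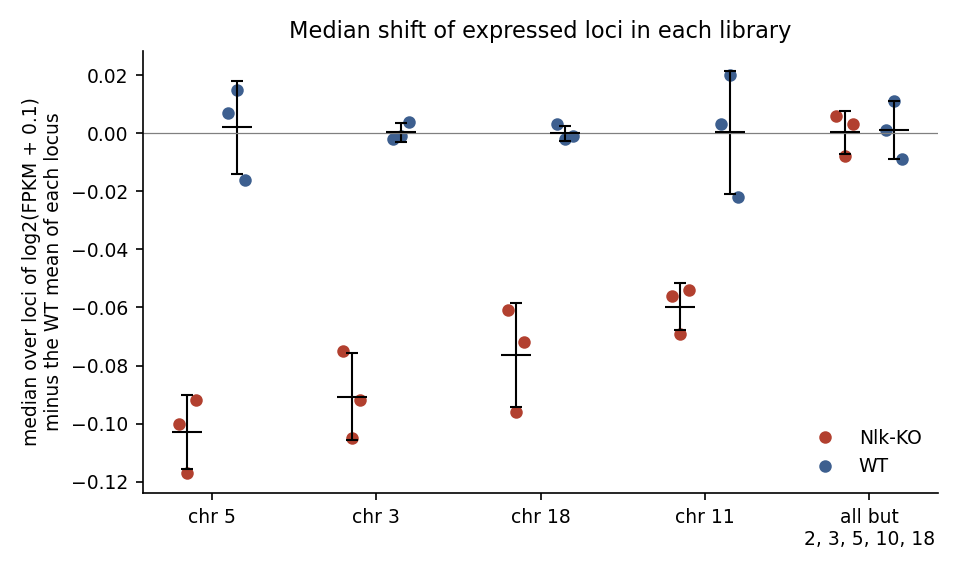
Median over expressed loci of log2(FPKM + 0.1) minus the WT mean of the locus, for the loci of chromosomes 5, 3, 18 and 11 and for all loci outside chromosomes 2, 3, 5, 10 and 18. Points are libraries and black bars the mean ± SD of 3 libraries; Nlk-KO points (red) stand between -0.117 and -0.061 on chromosomes 5, 3 and 18, and WT points (blue) between -0.016 and 0.015.

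The quartiles of the distribution were displaced with little change in the distance between them. The distance between the lower and upper quartile of the log2 fold change was 0.23 on chromosome 5, 0.23 on chromosome 3 and 0.22 on chromosome 18, against 0.24 over the loci outside these and chromosomes 2 and 10. On chromosome 5 the quartiles were -0.22 and 0.01, on chromosome 3 -0.21 and 0.02, and on chromosome 18 -0.19 and 0.03, against -0.12 and 0.12 for the comparison loci. The tails did not all move by the same amount. The 10th and 90th percentiles were -0.41 and 0.20 on chromosome 5, -0.50 and 0.21 on chromosome 3, and -0.37 and 0.30 on chromosome 18. For the comparison loci they were -0.31 and 0.33. Beside the median change of -6.43% over all 1723 members, the median coefficient of variation between replicates, among members of at least 5 FPKM, was 3.63% in Nlk-KO and 3.38% in WT libraries.

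**Figure D2:**
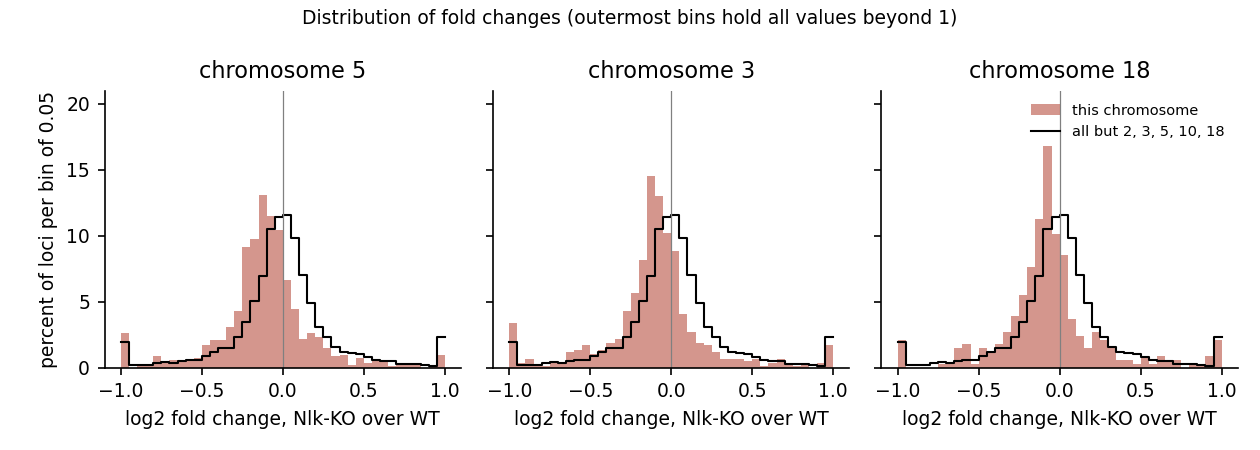
Share of loci in bins of 0.05 of the log2 fold change, Nlk-KO over WT, for each of the chromosomes (red) and for all loci outside chromosomes 2, 3, 5, 10 and 18 (black line). The red distributions have quartile widths of 0.22 to 0.23 against 0.24 for the black one, and medians of -0.11, -0.10 and -0.08 on chromosomes 5, 3 and 18.

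Single loci passed the limma test more often in the lower than in the higher direction. On chromosome 5, 262 loci were called lower in Nlk-KO cells and 75 higher, on chromosome 3, 184 and 56, and on chromosome 18, 85 and 41, at an adjusted p under 0.05 over all 12667 loci. Over the genome 18.5% of loci were called lower and 18.6% higher, whereas the members gave 30.8% and 9.98%; since the chromosomes were chosen on this contrast, nothing is read from the gap. All Nlk-KO libraries lay below all WT libraries at 740 members (42.9%, against 25.9% of all loci), and above them at 226 (13.1%, against 25.1%). The calls were mostly small: 280 of the 531 loci called lower had changed by less than 1.2-fold, and 34 by more than 2-fold, and 19 of the 172 called higher had changed by more than 2-fold. When a change beyond 1.2-fold was tested for, 90 of the 531 remained called lower and 52 of the 172 higher. Removing the median of each chromosome from each library left 241 of the 531 called lower and all 172 called higher, and added 148 higher calls. The split also depended on the scaling of the libraries. With each library scaled to an equal sum of FPKM, 27 loci were lower and 20 higher on chromosome 5, 28 and 24 on chromosome 3, and 7 and 15 on chromosome 18, and the medians were -0.04, -0.03 and -0.01, while the median of all 12667 loci stood at 0.05 against -0.01 before. Over the members, 54 of the 531 remained lower and 50 of the 172 higher. The sums were taken over loci with a symbol and included the microRNA loci described below. Among these, Mir1895 had 29214, 0 and 0 FPKM in Nlk-KO and 0, 0 and 24541 FPKM in WT libraries. Over members with a symbol the FPKM summed to 84304, 58538 and 64118 in Nlk-KO and 68330, 75780 and 95214 in WT libraries. How far such loci set the scale was not tested.

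No difference between the chromosomes passed the test that 3 libraries per genotype allow. The per-library median of chromosome 5 minus that of chromosome 3 averaged -0.012 ± 0.012 in Nlk-KO and 0.002 ± 0.019 in WT libraries (SD, n = 3 each), a difference of -0.014 (exact permutation test, two-sided, p = 0.3, adjusted p = 0.3 over 3 comparisons). Chromosome 5 minus 18 differed by -0.029 between the genotypes (-0.026 ± 0.010 in Nlk-KO and 0.002 ± 0.016 in WT libraries, n = 3 each; exact permutation p = 0.1, adjusted p = 0.15), and chromosome 3 minus 18 by -0.015 (-0.015 ± 0.005 in Nlk-KO and 0.000 ± 0.005 in WT libraries, n = 3 each; exact permutation p = 0.1, adjusted p = 0.15). The smallest p this test can give is 0.1, so these values do not show that the chromosomes moved alike.

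Medians were below 0 at every level of abundance and locus length. In tertiles of the mean level, split for all tested loci at 6.07 and 21.7 FPKM, the medians from low to high were -0.10, -0.11 and -0.10 on chromosome 5, -0.12, -0.10 and -0.07 on chromosome 3 and -0.05, -0.09 and -0.07 on chromosome 18. Of the most abundant loci more lay below 0 on chromosome 5: 82.3% of the 271 loci in its high tertile did, against 48.1% of 3657 such loci on other chromosomes, and 63.2% of 242 in its low tertile. The median was the same in its low and high tertiles, and the spread was smaller in the high one. The quartiles were -0.34 and 0.12 in the low and -0.19 and -0.03 in the high tertile. By span, split at 17087 and 51013 bp, medians ran between -0.12 and -0.07 in every group. Across loci the log2 fold change had Spearman correlations of 0.03, 0.08 and -0.03 with the mean level on chromosomes 5, 3 and 18 (809, 586 and 328 loci) and of 0.06, 0.04 and 0.12 with span. Neighbouring loci resembled each other weakly, with a correlation between a locus and the next of 0.10 over 808 pairs on chromosome 5, 0.13 over 585 on chromosome 3 and 0.21 over 327 on chromosome 18. None of these exceeded the 0.22 over 12646 pairs of the whole genome. These loci share libraries and, where genes overlap, reads.

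Each chromosome was then cut into segments of 10 Mb, and those with at least 10 tested loci were described. The median was below 0 in 14 of 14 segments of chromosome 5, 15 of 16 of chromosome 3 and 9 of 9 of chromosome 18, compared with 103 of 215 segments on the other chromosomes. In 12, 15 and 8 of them the medians of all Nlk-KO libraries lay below those of all WT libraries, and in none above; over the genome 30.3% of 254 segments did the first and 23.6% the second. Segment medians spanned -0.17 to -0.02 on chromosome 5, -0.15 to 0.01 on chromosome 3 and -0.18 to -0.02 on chromosome 18, with SDs between segments of 0.038, 0.036 and 0.051. In windows of 31 consecutive loci, 99.1% of 779 medians were below 0 on chromosome 5, 98.6% of 556 on chromosome 3 and 98% of 298 on chromosome 18.

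**Figure D3:**
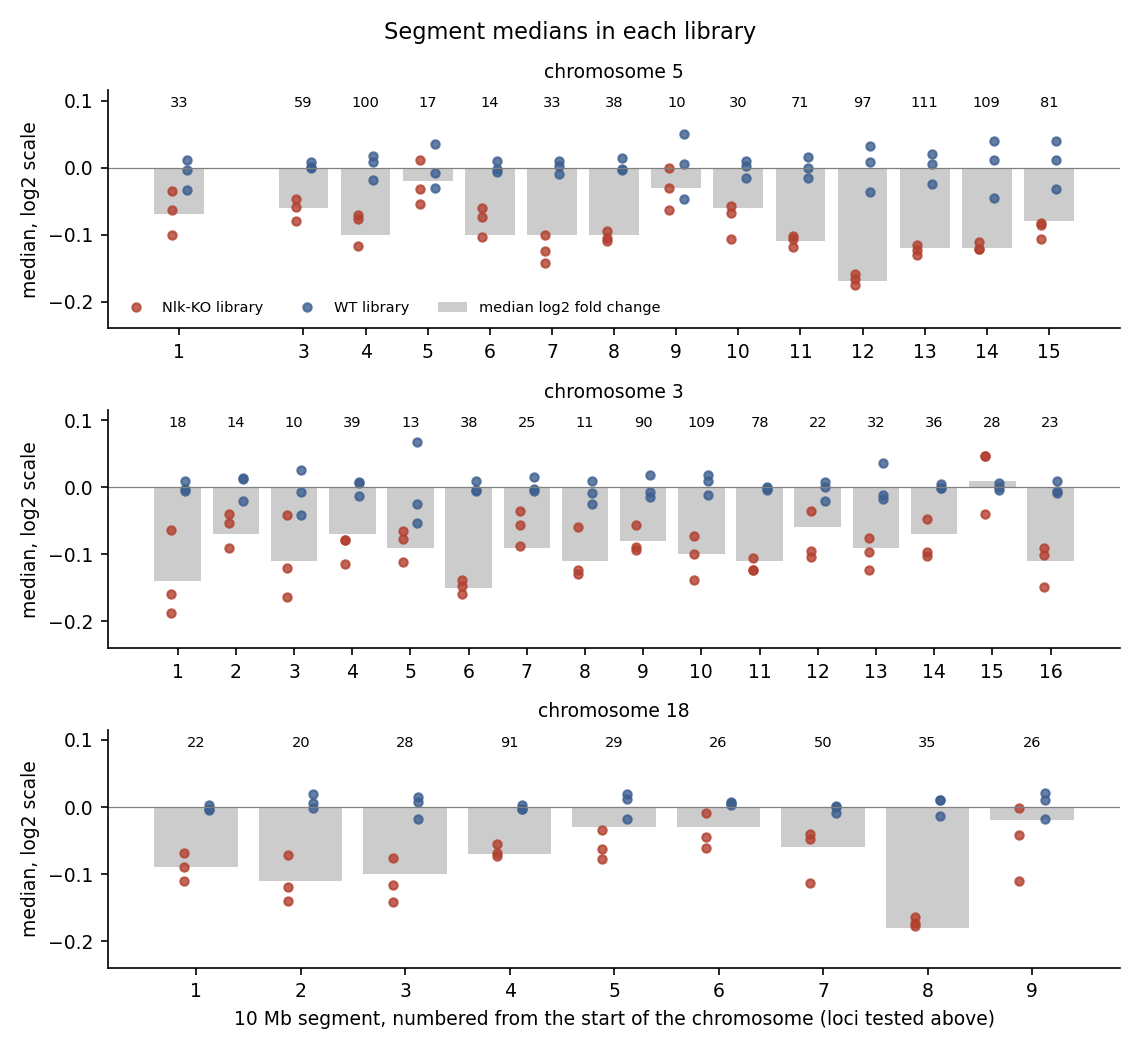
Median of each 10 Mb segment with at least 10 tested loci, numbered from the start of each chromosome: grey bars give the median log2 fold change, Nlk-KO over WT, and points the median in each library against the WT mean (Nlk-KO red, WT blue). Numbers above are loci tested; the lowest bars are segment 8 of chromosome 18 (-0.18), 12 of chromosome 5 (-0.17) and 6 of chromosome 3 (-0.15), and the 15th of chromosome 3 stands at 0.01.

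On chromosome 5 the deepest segment ran between 110 and 120 Mb. Its median was -0.17 over 97 loci, of which 47 were called lower and 5 higher, and the library medians were -0.175, -0.166 and -0.159 in Nlk-KO and 0.009, 0.032 and -0.037 in WT cells. The most abundant loci there were Rplp0, a ribosomal stalk protein (1502 ± 18.9 FPKM in Nlk-KO and 1775 ± 124 FPKM in WT cells, SD, n = 3 each, limma adjusted p = 0.0563), Cox6a1, a cytochrome c oxidase subunit (383 ± 4.93 and 453 ± 15.4 FPKM, limma adjusted p = 0.00562), and Pebp1, a RAF kinase inhibitor protein (308 ± 9.69 and 332 ± 7.52 FPKM, limma adjusted p = 0.0879). Between 114 and 116 Mb, a piece chosen after its values were seen, 38 of 43 loci lay below 0 and 23 were called lower against 1 higher. They included Coq5 of coenzyme Q synthesis (log2 fold change -0.22, as are the bracketed values after gene names from here on), the mitochondrial sirtuin Sirt4 (-0.28), the RNase P subunit Pop5 (-0.39) and the uracil DNA glycosylase Ung (-0.26). The neighbouring segments from 120 to 140 Mb had medians of -0.12 each, with 44 of 111 and 40 of 109 loci called lower and 5 and 15 higher. From 130 to 140 Mb, Vgf, a secreted neuropeptide precursor, had 248, 250 and 244 FPKM in Nlk-KO and 352, 356 and 309 FPKM in WT libraries (log2 fold change -0.45, limma adjusted p = 0.00126).

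The shallowest segments of chromosome 5 were those from 40 to 50 Mb, at -0.02 over 17 loci with 1 call each way, and from 80 to 90 Mb, at -0.03 over 10 loci with none. In both the genotypes overlapped. Rab28, a small GTPase, was called lower in the first (38.6 ± 0.453 FPKM in Nlk-KO and 44.3 ± 0.599 FPKM in WT cells, SD, n = 3 each, limma adjusted p = 0.00183), whereas Qdpr, dihydropteridine reductase (42 and 44.1 FPKM), and the condensin subunit Ncapg (27.4 and 27.8 FPKM) were not called. In the second, neither the m6A reader Ythdc1 (51.6 and 52.8 FPKM), nor Grsf1 (67.4 and 68 FPKM), nor deoxycytidine kinase, Dck (54.9 and 59.7 FPKM), was called.

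On chromosome 3 the lowest median, -0.15, belonged to 50 to 60 Mb, where 33 of 38 loci lay below 0 and 18 were called lower against 1 higher. Its library medians were -0.138, -0.159 and -0.147 in Nlk-KO and 0.009, -0.004 and -0.006 in WT cells. Ndufc1, a subunit of respiratory complex I, had 103 ± 5.43 FPKM in Nlk-KO and 121 ± 7.33 FPKM in WT cells (SD, n = 3 each, limma adjusted p = 0.0144), and Ccrn4l, the circadian deadenylase nocturnin, 87.3 ± 8.57 and 104 ± 1.94 FPKM (limma adjusted p = 0.0207), while the selenoprotein Selt stood level at 75.5 and 75.2 FPKM. The call at Ndufc1 ended without Nlk-KO replicate 1 or WT replicate 1 (limma adjusted p = 0.0536 and 0.0516), and that at Ccrn4l without replicate 1 or 3 of either genotype (0.0529 to 0.0731). The first 10 Mb came next, at -0.14 over 18 loci, with 5 lower and 1 higher. There the mitochondrial ribosome gene Mrps28 was lower (46.2 ± 1.15 FPKM in Nlk-KO and 56 ± 3.19 FPKM in WT cells, SD, n = 3 each, limma adjusted p = 0.00387) and Stmn2, the neuronal tubulin-binding stathmin, was the locus called higher (198, 188 and 189 FPKM in Nlk-KO, against 169, 168 and 167 FPKM in WT libraries, log2 fold change 0.19).

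A single segment of chromosome 3 did not share the lowering. From 140 to 150 Mb the median was 0.01 over 28 loci, with 12 below 0 and 5 called each way, and the library medians of 0.046, -0.040 and 0.046 in Nlk-KO cells spanned the WT values of 0.006, -0.004 and 0.000. Without Nlk-KO replicate 3 the median was -0.01. Its most abundant loci, the selenoprotein gene Sep15 (163 and 171 FPKM), the G protein subunit Gng5 (289 and 278 FPKM) and Rpf1 of ribosome assembly (57.7 and 58.3 FPKM in Nlk-KO and WT cells), were not called. The next shallowest, 110 to 120 Mb at -0.06 over 22 loci, held Ptbp2, the neuronal splicing repressor, which was higher (46.4 ± 0.642 FPKM in Nlk-KO and 38.9 ± 0.484 FPKM in WT cells, SD, n = 3 each, limma adjusted p = 0.000604).

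Chromosome 18 was the least even. Its segment from 70 to 80 Mb had the lowest median of all segments on the 3 chromosomes, -0.18 over 35 loci, with 17 lower and 3 higher, and ranked 8th from the bottom among the 254 of the genome. The library medians were -0.173, -0.164 and -0.177 in Nlk-KO and 0.010, 0.011 and -0.013 in WT cells. Atp5a1, the alpha subunit of ATP synthase, had 314, 301 and 313 FPKM in Nlk-KO and 361, 360 and 341 FPKM in WT libraries (log2 fold change -0.19, limma adjusted p = 0.0118; 0.0535 without WT replicate 1), whereas Rpl17, a ribosomal protein, was not called (924 and 944 FPKM). The segment from 10 to 20 Mb followed at -0.11, with 18 of 20 loci below 0, among them Impact, a translation regulator (36.2 ± 1.15 FPKM in Nlk-KO and 44.3 ± 1.56 FPKM in WT cells, SD, n = 3 each, limma adjusted p = 0.00143). At the other extreme, 80 to 90 Mb and 40 to 50 Mb had medians of -0.02 and -0.03, with 5 lower and 4 higher among 26 loci and 4 lower and 3 higher among 29. The segment from 40 to 50 Mb held Dpysl3, a neuronal collapsin response mediator, at 331, 299 and 307 FPKM in Nlk-KO and 272, 274 and 259 FPKM in WT libraries (log2 fold change 0.22, limma adjusted p = 0.0139). Eno1b, an enolase locus of the same segment, had 210, 204 and 213 FPKM in Nlk-KO and 264, 261 and 217 FPKM in WT libraries (limma adjusted p = 0.047, and 0.0946 to 0.148 without any one library but WT replicate 3). From 80 to 90 Mb, the spliceosome gene Txnl4a was lower (58.9 and 64 FPKM in Nlk-KO and WT cells, limma adjusted p = 0.0164; 0.0717 without WT replicate 1) and cytochrome b5, Cyb5, higher (22 and 20.2 FPKM, limma adjusted p = 0.0328, and 0.0656 to 0.0919 without any one library but WT replicate 3). In the densest segment, 30 to 40 Mb, 23 of 91 loci were lower and 16 higher.

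That mixture on chromosome 18 included the clustered protocadherins, neuronal cell-surface adhesion proteins. Of 12 tested loci of the cluster, 10 were called higher in Nlk-KO cells and none lower, with a median log2 fold change of 0.64. By limma at an unadjusted p under 0.05 the counts were also 10 and 0. The locus that joins 37 alpha and gamma genes had 79.5, 77.1 and 81.6 FPKM in Nlk-KO and 62.7, 63.8 and 65.2 FPKM in WT libraries (log2 fold change 0.31, limma adjusted p = 0.000514). Among beta genes, Pcdhb20 had 2.33, 2.15 and 2.03 FPKM in Nlk-KO and 1.39, 1.51 and 1.53 FPKM in WT libraries (0.52), the joined Pcdhb15 to Pcdhb18 locus changed by 0.62 and that of Pcdhb5 to Pcdhb7 by 0.38. All Nlk-KO libraries exceeded all WT libraries at 11 of the 12 loci. The 12 loci carry one and the same deposited span and hold closely related genes, so reads cannot be assigned to single genes with certainty, and 3 of the 12 stayed called when libraries were scaled to equal sums. Of 3 cadherins outside the cluster, 1 was lower and none higher (2 and none by limma at an unadjusted p under 0.05). Pcdh1 on the same chromosome had 63.5 ± 1.53 FPKM in Nlk-KO and 71.5 ± 3.45 FPKM in WT cells (SD, n = 3 each, limma adjusted p = 0.0195, and 0.0578 to 0.0756 without replicate 2 or 3 of Nlk-KO or 1 or 2 of WT), and Cdh2, N-cadherin, 4.32 and 4.74 FPKM without a call.

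**Figure D4:**
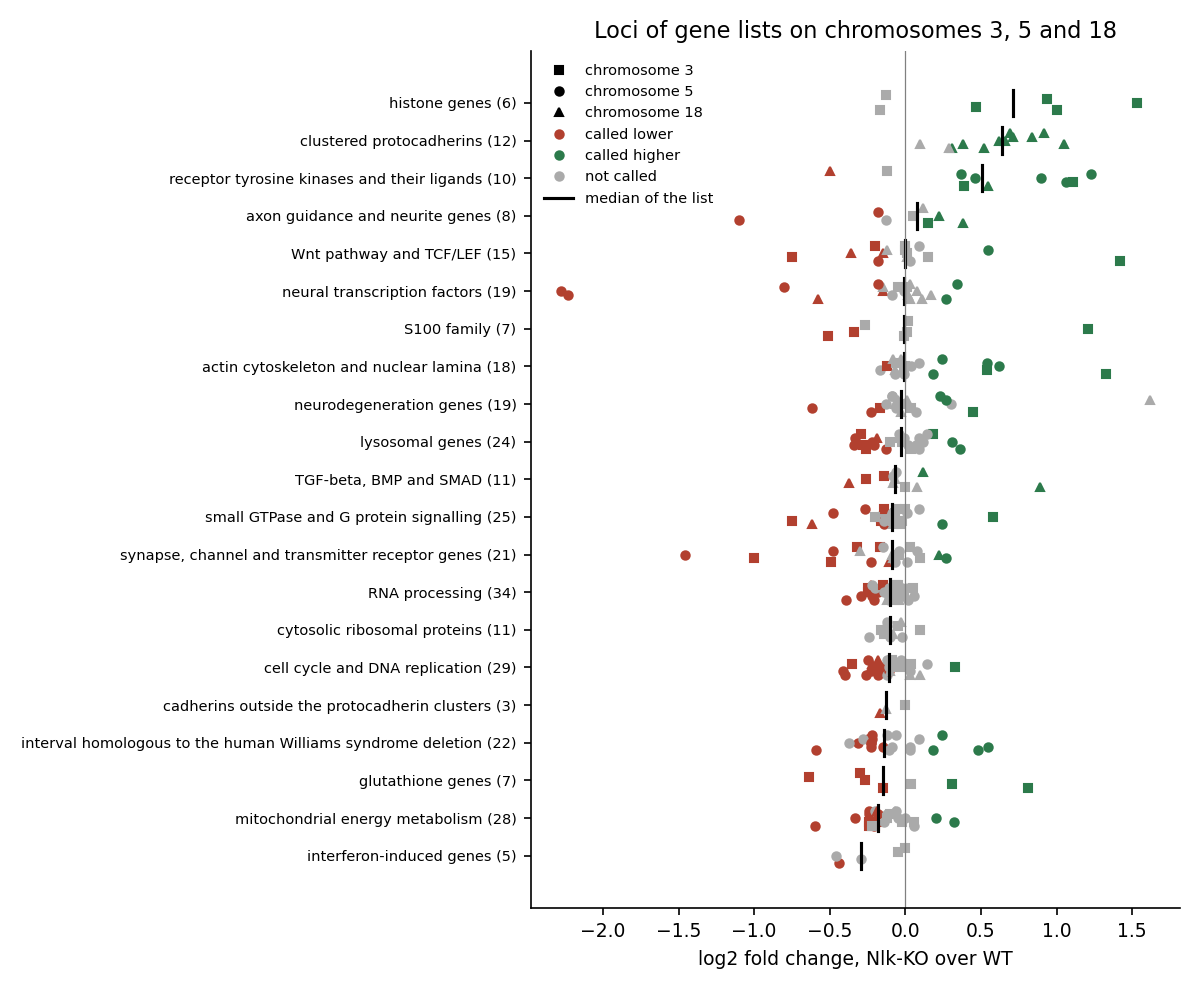
Log2 fold change, Nlk-KO over WT, of each tested locus of 21 gene lists on chromosomes 3 (squares), 5 (circles) and 18 (triangles); red loci were called lower, green higher and grey neither, black bars are list medians and numbers in brackets loci tested. Histone genes, clustered protocadherins and receptor tyrosine kinases with their ligands stand to the right, with medians of 0.71, 0.64 and 0.51, and the other lists have medians between -0.18 and 0.00, except interferon-induced genes (-0.29) and axon guidance genes (0.08). Under equal sums the medians of the lysosomal, neurodegeneration, S100, neural transcription factor, actin and Wnt lists stand between 0.04 and 0.07.

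The counts of each gene list stand against those of all loci of the 3 chromosomes, of which 30.8% were called lower and 9.98% higher with a median of -0.10, so a list with about these shares shows nothing of its own. Receptor tyrosine kinases and their ligands, which pass growth factor signals across the membrane, had a median above 0. Of 10 tested loci, 8 were called higher in Nlk-KO cells and 1 lower, and the median was 0.51, with 4 higher when libraries were scaled to equal sums. Fgfrl1, a decoy-like FGF receptor without a kinase domain, had 5.87, 4.9 and 5.31 FPKM in Nlk-KO and 2.25, 2.2 and 2.23 FPKM in WT libraries (log2 fold change 1.23, limma adjusted p = 2.98e-05). The EGF receptor ligand Hbegf had 4.36, 4.42 and 4.88 FPKM in Nlk-KO and 2.84, 3.18 and 3.23 FPKM in WT libraries (0.55), and the growth factor Pdgfa 13.7, 12.1 and 12.1 against 10.4, 11.1 and 7.99 FPKM (0.37, limma adjusted p = 0.0463, and 0.0696 to 0.141 without any one Nlk-KO library or WT replicate 1). Named after their values were seen, Pdgfc (1.11), Pdgfra (1.06) and Ephb4 (0.90) lay among the higher loci and Fgf1 (-0.50) was the lower one.

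Mitochondrial energy genes lay mostly below 0, 24 of 28, and fewer passed the test. Of the 28 loci, 13 were called lower, 2 higher and 13 neither, with a median of -0.18. The most abundant, the ATP synthase subunit Atp5k, was not called (440, 427 and 439 FPKM in Nlk-KO and 453, 490 and 565 FPKM in WT libraries, limma adjusted p = 0.0897). Besides Cox6a1, Atp5a1 and Ndufc1, the malate dehydrogenase gene Mdh2 had 274, 263 and 274 FPKM in Nlk-KO and 330, 338 and 294 FPKM in WT libraries (log2 fold change -0.24, limma adjusted p = 0.017; 0.0521 to 0.066 if Nlk-KO replicate 2 or one of WT replicates 1 and 2 was left out). Outside the list, Atp5j2 had 487, 459 and 503 FPKM in Nlk-KO and 552, 567 and 541 FPKM in WT libraries (-0.20, limma adjusted p = 0.0235), and on it Atp5f1 had 227, 217 and 232 against 257, 257 and 260 FPKM (-0.20, limma adjusted p = 0.00728). Removing the median of each chromosome left 3 of the list lower and 3 higher, and scaling to equal sums left none called. Cytosolic ribosomal proteins had a median of -0.10, with 10 of 11 below 0, but none passed limma's threshold (2 were lower and none higher at an unadjusted p under 0.05). The log2 fold changes ran between -0.24 at Rplp0, which was also the most abundant, and 0.10 at Rps27 (1617 and 1510 FPKM in Nlk-KO and WT cells).

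Genes of the cell cycle and DNA replication and of RNA processing were, like the chromosomes as a whole, called lower more often than higher. Of 29 tested cell cycle loci, 13 were lower and 1 higher, with a median of -0.11. Anapc5, a subunit of the anaphase-promoting complex, had 110, 108 and 110 FPKM in Nlk-KO and 123, 125 and 119 FPKM in WT libraries (log2 fold change -0.16, limma adjusted p = 0.00833), while Ran (344 and 372 FPKM), the condensin subunit Smc4 (106 and 107 FPKM) and Cks1b (94.7 and 101 FPKM) were not called. Chosen after their values were seen, 3 subunits of the clamp loader on chromosome 5 were lower: Rfc5 (-0.41), Rfc2 (-0.25) and Rfc1 (-0.21). Of 34 RNA processing loci, 9 were lower and none higher (15 and none by limma at an unadjusted p under 0.05), with a median of -0.10, a share of lower calls below the 30.8% of all members. Scaled to equal sums, neither list had a call, and with the chromosome medians removed the cell cycle list had 7 lower and 3 higher and the RNA list 2 each. The most abundant RNA processing loci, Eif3b (208 and 225 FPKM), Matr3 (154 and 153 FPKM), Eif4h (153 and 165 FPKM) and Hnrnpdl (128 and 138 FPKM in Nlk-KO and WT cells), were not called.

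Lists tied to neurons and to the lysosome split both ways, in shares near those of all members (30.8% lower and 9.98% higher). Of 24 lysosomal loci, 9 were lower and 3 higher, with a median of -0.03 that turned to 0.04 when libraries were scaled to equal sums, a scaling that left none of them called. The list does not include 0610031J06Rik (RefSeq Glmp), the lysosomal membrane protein gene whose promoter is shown above. That locus was lower, at a log2 fold change of -3.95, whereas the lowest of the list stood at -0.34. Scarb2, the receptor that carries glucocerebrosidase to lysosomes, was higher (70.7, 68.4 and 75.7 FPKM in Nlk-KO and 54.9, 55.9 and 56.3 FPKM in WT libraries, log2 fold change 0.36, limma adjusted p = 0.000732). Lamtor2, a subunit of the Ragulator complex that holds mTORC1 regulators at the lysosome, was lower (59.3, 56.3 and 55.5 against 68.9, 68.2 and 68.3 FPKM, -0.26), as was the adaptor subunit Ap1s1 (-0.22), and the lipoprotein receptor Scarb1 was not called (55.8 and 52.5 FPKM). Of 21 synapse, channel and transmitter receptor loci, 8 were lower and 2 higher, against 2 and none under equal sums and 5 each with the chromosome medians removed. Cplx1, complexin of the synaptic vesicle, had 87.8, 84.6 and 85.4 FPKM in Nlk-KO and 116, 126 and 118 FPKM in WT libraries (-0.48, limma adjusted p = 0.000133, and 0.4 under equal sums). Ywhag (113 and 119 FPKM in Nlk-KO and WT cells), a 14-3-3 protein, was not called.

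Of 18 actin and lamina loci, 6 were higher and 1 lower, with a median of -0.01 that stood at 0.06 under equal sums, with 3 higher and none lower. Actb, cytoplasmic beta-actin, had 3319, 3240 and 3287 FPKM in Nlk-KO and 2391, 2410 and 2004 FPKM in WT libraries (log2 fold change 0.54, limma adjusted p = 0.00815, and 0.561 under equal sums), and Wdr1, which speeds actin filament turnover, had 147, 139 and 147 against 95.4, 97.5 and 89 FPKM (0.62), while Coro1c and Arpc3 were not called. Of 25 loci of small GTPase and G protein signalling, 8 were lower and 2 higher, close to the shares of all members, with 1 each under equal sums and 3 each with the chromosome medians removed. Rhoc was among the higher (96.3, 94.7 and 98.8 FPKM in Nlk-KO and 64.1, 67.2 and 62.5 FPKM in WT libraries, 0.58), and Rac1, Gnb2 and Rheb were not called. Of 6 histone loci of chromosome 3, 4 were higher (3 under equal sums) and none lower (4 and 1 by limma at an unadjusted p under 0.05), among them Hist2h2bb (2.74 and 1.41 FPKM), Hist2h3c1 (2.18 and 1.03 FPKM) and Hist2h2be (1.95 and 1.38 FPKM in Nlk-KO and WT cells). Replication-dependent histone transcripts mostly lack a poly(A) tail, so poly(A) libraries catch few of them and near-identical copies share reads. H2afz, a replacement histone, was not called (369 and 404 FPKM).

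The remaining lists were smaller or mixed, and few of their calls held under equal sums (none of the Williams interval and interferon lists, 1 lower and 1 higher of the Wnt list, and 1 higher each of the TGF-beta, glutathione, S100 and neurodegeneration lists, against 1 lower of the axon list). On chromosome 3, where the Gstm glutathione transferases lie side by side, 4 of 7 glutathione loci were lower and 2 higher: Gstm1 (0.81) and Gstm2 (0.31) were higher, Gstm5 (-0.15) and Gclm (-0.27), a subunit of the enzyme that begins glutathione synthesis, lower, and these copies are similar enough to share reads. Of 7 S100 calcium-binding proteins, S100a4 (-0.51) and S100a6 (-0.34) were lower and S100a16 (1.21, at a mean of 0.575 FPKM) higher, while the abundant S100a10 stood level (121 FPKM in both genotypes). Of 22 loci in the chromosome 5 interval that matches the human Williams syndrome deletion, 9 were lower and 4 higher, and among its most abundant loci those called were the transcription factor Gtf2i (-0.15) and the clamp loader Rfc2 (-0.25), with Eif4h and Baz1b not called. Of 15 Wnt loci, 5 were lower and 2 higher, Ctbp1 (-0.18), Tcf4 (-0.15) and the joined Pygo2 and Shc1 locus (-0.75) being lower and Csnk1a1 not called. Tcf4 is counted in this list by its name, but it is a basic helix-loop-helix factor and not a TCF/LEF factor. The TGF-beta and SMAD list gave 3 lower and 2 higher of 11, with Hipk1 (-0.26) and the SMAD inhibitor Skil (-0.14) lower, Smad2 (0.12) higher and Smad4 not called. Named after its values were seen, the other lower locus was Elac1 (-0.37), which lies near Smad4 and is not itself a SMAD gene. Of 8 axon guidance loci 2 were lower, Crmp1 (-0.18) among them, and 3 higher, with Dpysl3 and Lphn2 (0.15). The neurodegeneration list gave 3 of 19 each way, with Uchl1, a neuronal ubiquitin hydrolase, lower (291, 280 and 288 FPKM in Nlk-KO and 443, 452 and 425 FPKM in WT libraries, -0.62) and Matr3, Dnajb6 and Lmnb1 not called. It is a broad list, and its counts include Psrc1 (0.45) and Bcl7b (-0.23), named after their values were seen. Of 5 interferon-induced loci Oas1c was lower (-0.44) and none higher (3 and none by limma at an unadjusted p under 0.05). Under equal sums the medians of the S100 and neurodegeneration lists, -0.01 and -0.03, stood at 0.06 and 0.04. Several of these calls ended when a single library was left out. Without the library in question the limma adjusted p was 0.0538 to 0.0683 for Ctbp1 (replicates 1 and 2 of either genotype), 0.0526 to 0.0678 for Gtf2i (Nlk-KO 2 and 3, WT 1 and 2), 0.0506 to 0.0662 for Lphn2 (Nlk-KO 1 and any WT library) and 0.0516 to 0.0693 for Oas1c (Nlk-KO 2, WT 1 and 2). It was 0.0689 to 0.109 for Skil (Nlk-KO 2 and 3 and any WT library), 0.0974 to 0.156 for Smad2 (Nlk-KO 1 and 3, WT 1 and 2), 0.0571 and 0.0646 for Gstm5 (Nlk-KO 2 and WT 2), 0.0509 for S100a6 and 0.0548 for Tcf4 (both Nlk-KO 3).

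The largest single differences ran in both directions. Of 19 neural transcription factors 6 were lower and 2 higher (2 and none under equal sums), and the abundant Mef2d was not called. One of the lower ones was Hopx (-2.28), named after its values were seen. The median of that list, -0.01, stood at 0.06 under equal sums. Shisa3, a Wnt and FGF receptor inhibitor, was the highest called locus of at least 5 FPKM on chromosome 5 (chr5:67607883-67613987; 6.43, 6.53 and 6.71 FPKM in Nlk-KO and 3.62, 3.61 and 3.89 FPKM in WT libraries, 0.81).

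Among the low loci of chromosome 5 were Rimbp2, which tethers presynaptic calcium channels (5.76, 5.86 and 5.57 FPKM in Nlk-KO and 12.7, 12.6 and 12.3 FPKM in WT libraries, log2 fold change -1.12), and Adrbk2, a kinase that phosphorylates G protein-coupled receptors (-1.11). Others were the RAS-like Rasl11a (-0.97), the small heat shock protein Hspb8 (46.1, 43 and 44.3 against 78.1, 80.9 and 73 FPKM, -0.80) and the urea cycle enzyme Asl (-0.77). Higher ones were the elastic fibre protein Emilin1 (22.5, 22.5 and 23.3 FPKM in Nlk-KO and 13.6, 13.7 and 13 FPKM in WT libraries, 0.76), the AP-1 factor Fosl2 (0.74) and the steroid dehydrogenase Hsd17b11 (0.71). The genotypes did not overlap at any of them, since non-overlap was a condition for naming them, and the limma adjusted p was at most 0.000102.

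On chromosome 3 the locus 0610031J06Rik (chr3:88325023-88328631) was the lowest called gene of at least 5 FPKM, a microRNA locus aside. It had 1.02, 0.978 and 1.04 FPKM in Nlk-KO and 16.5, 17.7 and 17.1 FPKM in WT libraries (log2 fold change -3.95, SE 0.053, limma adjusted p = 6.78e-08). Tmem79, named for its place next to it, was not called (log2 fold change -0.29, limma adjusted p = 0.21). Olfml3, a secreted olfactomedin protein (1.83, 1.78 and 1.92 FPKM in Nlk-KO and 8.48, 9.95 and 9.44 FPKM in WT libraries, -2.27), and Syt6, a synaptotagmin (15.1, 13.9 and 14.3 against 29.5, 31.3 and 28.1 FPKM, -1.03), share 1 deposited span with Hipk1. Bdh2, a hydroxybutyrate dehydrogenase (-1.44), and the mitochondrial protein Mgarp (-1.07) were lower too. Npnt (chr3:132881745-132950291) was the highest such locus, at 12, 10.6 and 12.3 FPKM in Nlk-KO and 2.34, 2.4 and 2.28 FPKM in WT libraries (2.26, SE 0.065, limma adjusted p = 1.08e-06), followed by Gstm1, the tetraspanin Tspan2 (41.1, 38.4 and 41.8 against 24.7, 23.9 and 24.3 FPKM, 0.73) and nestin, Nes, an intermediate filament of neural progenitors (0.70).

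Chromosome 18 had smaller extremes than chromosome 3. Stk32a, a protein kinase (8, 7.57 and 7.61 FPKM in Nlk-KO and 18.9, 17.9 and 17.8 FPKM in WT libraries, log2 fold change -1.22), and Cd74, the invariant chain of MHC class II (5.9, 5.48 and 6.2 against 13.3, 12.8 and 12.8 FPKM, -1.14), were the lowest of at least 5 FPKM, ahead of the GTPase-activating protein Arhgap26 (-0.62), Isoc1 (-0.61), the actin nucleator Spire1 (-0.59) and the immediate early factor Egr1 (16.4, 17.3 and 15.9 against 26.1, 24.9 and 23.3 FPKM, -0.58). The highest such locus was Nrep, a neuronal regeneration protein, with 20.1, 17.9 and 18.4 FPKM in Nlk-KO and 8.58, 8.95 and 9.06 FPKM in WT libraries (1.07, limma adjusted p = 1.11e-05). Gypc, glycophorin C (0.56), the cytokine signalling suppressor Socs6 (0.46) and the semaphorin Sema6a (0.38) followed.

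**Figure D5:**
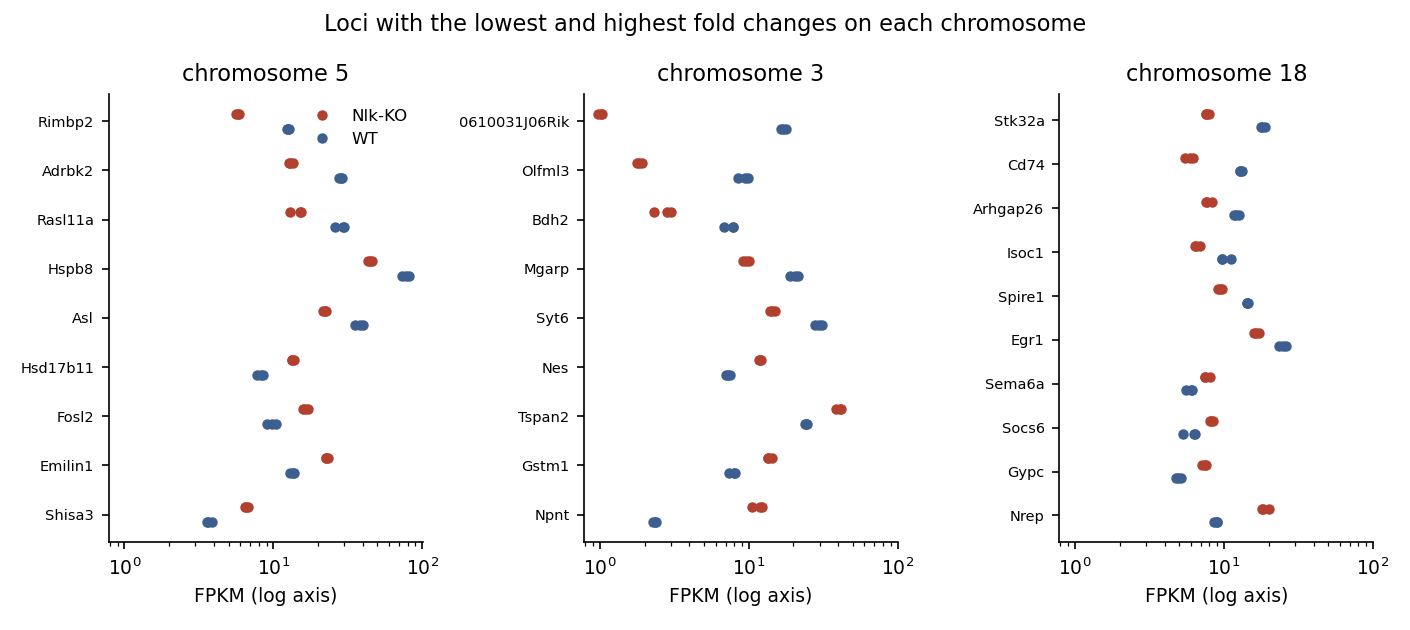
FPKM on a log axis in each library for the loci with the lowest and highest log2 fold changes of each chromosome, among called loci of at least 5 FPKM with 1 symbol and no overlap, apart from microRNA loci and 1 locus not reported here; red points are Nlk-KO and blue points WT libraries. At 0610031J06Rik and Npnt the genotypes stand apart by log2 fold changes of -3.95 and 2.26, and the points of 1 genotype lie close together.

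Some of the most abundant members were not called. Rps14 on chromosome 18 had 856, 803 and 892 FPKM in Nlk-KO and 892, 941 and 867 FPKM in WT libraries, and Rps3a1 on chromosome 3 had 1471, 1431 and 1469 against 1455, 1490 and 1592 FPKM. Hspa9, the mitochondrial HSP70, was called lower on chromosome 18 (295, 273 and 286 against 314, 309 and 313 FPKM, limma adjusted p = 0.0471, and 0.0755 to 0.14 without Nlk-KO replicate 2 or 3 or any one WT library). Several listed microRNA precursors of 79 to 109 bp reached very high values, some of which swung between replicates. Mir1905, which shares its deposited span with Mex3a, had 0 in each Nlk-KO library and 10452, 16998 and 14863 FPKM in the WT libraries. Mir25 had 0, 5274 and 8683 FPKM in Nlk-KO libraries and 0 in the WT ones, and Mir1895 had 29214, 0 and 0 in Nlk-KO and 0, 0 and 24541 FPKM in WT libraries. FPKM of a transcript shorter than a library fragment rests on few reads and an estimated length, so no fold change is given here for these loci. Mir1905 is nevertheless counted above among the loci called lower by more than 2-fold.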

How the data were processed

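The expression values were FPKM per locus as deposited by the authors, who aligned paired-end poly(A) reads of N2a cells to GRCm38 with TopHat2 2.1.0, and used Cufflinks 2.2.1, Cuffnorm and Cuffdiff for quantification and comparison. No source used here names the annotation. Deposited columns with averages, a log2 fold change, a p-value and an FDR of the authors' own comparison were not used, nor was a second file, and 0 library columns were left unmapped. Deposited starts count from 0 and are given here from 1. With limma 3.58.1 (R 4.3.3), log2(FPKM + 0.1) was compared between 3 Nlk-KO and 3 WT libraries over the 12667 loci that averaged 0.5 FPKM or more, with a trended prior variance, Benjamini-Hochberg adjustment and a threshold of 0.05. Fold changes are on that scale, which understates those of low loci. The scripts were tested on simulated data. Depth could only be given relative to one library, from whole-read steps below 0.2 FPKM (tolerance 0.02 on the log2 scale).

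The chromosomes, gene lists and segments were chosen with earlier results of these data known. Named were, per chromosome, the 6 lowest and 4 highest called loci of at least 5 FPKM. These had 1 symbol, a span of at least 300 bp and no overlap between genotypes. Also named per chromosome, called or not, were the 5 most abundant loci with 1 symbol and that minimum span. To these came the 4 most abundant of each list, and the 3 most abundant of the 2 lowest and 2 highest segments of each chromosome. A few loci that the rule names are not reported here. Alternatives covered the pseudocount, the filter on low values, the scaling, the loci used, the variance model, a 1.2-fold threshold, segment size, a replicate block and leaving out each library.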

Additional observations from a re-analysis of the deposited data

How the results depend on the processing

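Of 144 named loci 50 were lower and 33 higher. Of these calls 53 ended under equal sums (Actb, Uchl1, Cplx1, Scarb2, Egr1 and Dpysl3 among them) and 46 in the test against 1.2-fold, and pseudocounts of 0.01 and 1 changed none. With libraries scaled to equal upper quartiles of FPKM instead, 0 of the calls ended and 9 named loci gained one. Without a filter on low values the medians were -0.06 on chromosome 3 and -0.08 on chromosome 5. With a mean of at least 5 FPKM required, 37 loci were higher on chromosome 3 and 20 on chromosome 18, and the difference of chromosome 3 minus 18 turned to 0.00038. Scaled to equal sums, 28, 27 and 7 loci were lower and 24, 20 and 15 higher on chromosomes 3, 5 and 18, with medians of -0.03, -0.04 and -0.01. Past 1.2-fold, 36, 41 and 13 were lower and 21, 18 and 13 higher. With the median of each chromosome removed, an alternative chosen after seeing the data, chromosome 3 had 63 lower and 147 higher, chromosome 5 had 138 and 113, and chromosome 18 had 40 and 60, while Skil turned to 0.00. The cause of these changes was not tested, beyond the smaller number of loci under the stricter filter.

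When each library was left out in turn, 50 to 80 loci were lower on chromosome 18 (85 with all, 50 without WT replicate 1), 135 to 166 on chromosome 3 and 179 to 262 on chromosome 5. The median of chromosome 3 from 140 Mb ranged between -0.01 (without Nlk-KO replicate 3) and 0.04. The replicate numbers did not pair the libraries: deviations of same-numbered libraries correlated at 0.04, 0.06 and -0.16 over 8922 loci. With the replicate block, 156, 221 and 70 loci were lower and 52, 74 and 37 higher on chromosomes 3, 5 and 18, and 433 of the 531 lower and 155 of the 172 higher calls were kept. Absolute depth is unknown, so the precision of low loci rests on the spread of 3 libraries.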
